A study of Homo sapiens with 18 samples.

Results

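The genes described here are the receptor CALCRL, its accessory proteins RAMP1, RAMP2 and RAMP3, and the peptide ligand ADM (adrenomedullin). They are 5 of the 55765 gene symbols in the expression table. They were chosen by name as 1 signalling unit around CALCRL, and CALCRL itself was picked because its level was lower after tazemetostat, so its values with and without the drug are given as a description with no test. Of the 5 genes, 2 (CALCRL and ADM) had a mean normalized count of at least 10 over all libraries and entered the tests, and the other 3, the RAMP genes, did not.

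CALCRL is a class B G-protein-coupled receptor for peptide hormones that reaches the cell surface only together with a RAMP, a small protein with a single membrane span. The RAMP also sets which peptide the receptor prefers: with RAMP1 it is the receptor for calcitonin gene-related peptide (CGRP), and with RAMP2 or RAMP3 it is a receptor for adrenomedullin. The pair signals mainly through the G protein Gs and cyclic AMP (cAMP). Adrenomedullin is cut from a precursor, made active by amidation of its C-terminus, and widely known as a vasodilator and as a target of the hypoxia response. In normal tissue the receptor is best known from blood and lymphatic endothelium.

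RNA sequencing libraries were made from G401, a cell line from a malignant rhabdoid tumour, a childhood cancer defined by loss of the chromatin remodelling subunit SMARCB1. The study compared 3 lines derived from it. WT is a control targeted at the AAVS1 safe-harbour site, without a statement of whether it is a clone or a pool, and E1 and F2 are RB1-null lines edited with CRISPR/Cas9 on both alleles (RB1del), each of them 1 clone and, per the series text, without RB1 protein. A difference between a clone and WT therefore cannot be told apart from a difference between single clones. Each line was grown for 11 days with the solvent DMSO or with 10 µM tazemetostat (TAZ), an inhibitor of EZH2, the enzyme that methylates histone H3 at lysine 27. This gave 6 groups of 3 biological replicates, or 18 libraries with 25709489 to 39314860 recovered reads each.

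SMARCB1 had 0 reads in all 18 libraries. RB1, the targeted gene, had a mean normalized count of 2694 ± 132 (SD, n = 3) in WT with DMSO, 648 ± 138 in clone E1 and 839 ± 30.5 in clone F2, so its RNA was lower in both clones but not absent. RNA of a disrupted gene can persist, and these totals do not show where the cut lies. In a bulk library, fewer cells that express a gene and less RNA per cell cannot be told apart. This holds for every level below.

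The sequences upstream of the transcription start are shown because EZH2-dependent methylation is best known at promoters rich in CG dinucleotides, and the members differ in that feature. RefSeq promoter sequences (GRCh38.p14) were matched for 3 of the 5 genes, CALCRL, RAMP3 and ADM. Each line below is the 250 bases before the start, 5′ to 3′ on the gene's own strand, with CG dinucleotides in capitals. The CALCRL window is chr2:187448253-187448502 on the minus strand, the ADM window chr11:10304823-10305072 on the plus strand and the RAMP3 window chr7:45157541-45157790 on the plus strand.
CALCRL: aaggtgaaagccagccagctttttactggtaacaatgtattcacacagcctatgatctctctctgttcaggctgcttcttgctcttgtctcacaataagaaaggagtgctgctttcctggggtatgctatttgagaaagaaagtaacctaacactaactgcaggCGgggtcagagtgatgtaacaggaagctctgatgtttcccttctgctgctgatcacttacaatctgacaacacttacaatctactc
ADM: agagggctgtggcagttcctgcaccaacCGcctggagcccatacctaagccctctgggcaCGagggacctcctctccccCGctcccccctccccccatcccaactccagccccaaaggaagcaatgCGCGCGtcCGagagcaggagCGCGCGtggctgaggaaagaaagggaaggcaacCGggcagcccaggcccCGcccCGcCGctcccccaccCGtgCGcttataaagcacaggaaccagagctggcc
RAMP3: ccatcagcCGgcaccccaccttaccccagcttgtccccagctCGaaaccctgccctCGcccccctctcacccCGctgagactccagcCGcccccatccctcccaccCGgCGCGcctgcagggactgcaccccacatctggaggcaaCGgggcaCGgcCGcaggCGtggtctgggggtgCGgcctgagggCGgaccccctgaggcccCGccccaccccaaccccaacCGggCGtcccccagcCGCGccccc

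The CALCRL window held 1 CG and was 44% G or C. Among 35116 promoter windows of the same length the median was 11 CG, and 14.7% had as few as CALCRL. The ADM window held 16 CG at 68% G or C, and the RAMP3 window 19 CG at 75.6%. Of the motifs searched on both strands, TATAAA, the core of the TATA box, was found once in the ADM window, with its first base 27 bases before the start, and 10.7% of all windows hold it. GCGTG, a core of the hypoxia response element, was found once each in the ADM and RAMP3 windows (32.2% of all windows). ACGTG, the other form of that core (18.5% of windows), and TGACG, part of the cAMP response element (21.2%), were in none of the 3 windows. ACGTG and TGACG can share bases where both occur, and a match is a description of letters, not of a bound factor. The data hold no measurement of histone marks or binding at these windows.

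CALCRL RNA was well above the limit of counting in the 3 DMSO groups and close to it in the 3 TAZ groups. Values are counts divided by a size factor per library, called normalized counts here. In WT with DMSO the libraries held 472, 431 and 515 normalized counts, and with TAZ they held 3.94, 8.42 and 14.8. In E1 the values were 164, 115 and 188 with DMSO and 5.32, 10.6 and 10.4 with TAZ. In F2 they were 770, 682 and 775 with DMSO and 20.4, 18.2 and 24.0 with TAZ. Every DMSO library lay above every TAZ library, and the lowest TAZ library held 4 reads of the gene.

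**Figure D1:**
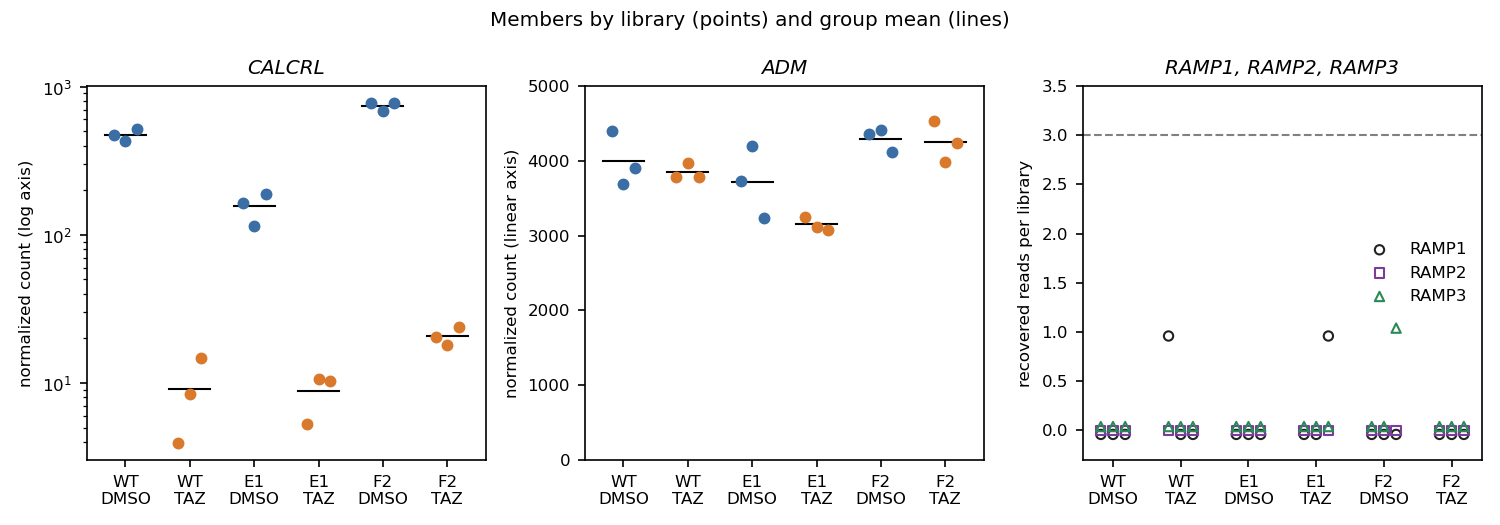
Members by library in the 6 groups: normalized count of CALCRL (log axis), normalized count of ADM (linear axis) and recovered reads of the 3 RAMP genes, shifted slightly so that symbols at 0 can be told apart; blue points are DMSO, orange points TAZ, black lines group means, and the dashed line marks 3 reads. CALCRL spans from 775 to 3.94 normalized counts, ADM stays between 3073 and 4535, and no RAMP gene has more than 1 read in a library.

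The group means of CALCRL were 472 ± 42.1 (SD, n = 3) with DMSO and 9.05 ± 5.45 with TAZ in WT, a ratio of 52.2. They were 156 ± 37.3 and 8.78 ± 2.99 in E1, a ratio of 17.7, and 742 ± 52.8 and 20.9 ± 2.97 in F2, a ratio of 35.6. On the scale of log2(normalized count + 1) the differences were -5.71 in WT, -4.03 in clone E1 and -5.09 in clone F2, each with a standard error of 0.31. Because CALCRL was chosen for this contrast, no test is given for it. With the drug the numbers of reads were small, so the ratios are imprecise: a pseudocount of 5 in place of 1 gave log2 differences of -5.16 in WT, -3.54 in E1 and -4.86 for F2. For reference, 6.77% of the 16154 tested genes were lower past the threshold with TAZ in WT, 3.78% in clone E1 and 3.71% in clone F2. The threshold is an adjusted p below 0.05 and a log2 difference of at least 1 in either direction.

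Without the drug the lines differed in CALCRL. The gene was not picked for this contrast, but the same DMSO libraries entered the fall for which it was picked. The tests between lines are therefore not independent of that choice. E1 was lower than WT, by 3.03-fold (log2 difference -1.62 ± 0.31 SE, limma adjusted p = 0.000879). E1 was also 4.77-fold lower than F2 (log2 difference -2.27 ± 0.31 SE, limma adjusted p = 1.63e-05). For comparison, 2.69% of tested genes were lower past the threshold in E1 than in WT and 3.52% lower in E1 than in F2. F2 was 1.57-fold higher than WT and its 3 libraries all lay above the 3 of WT, but the difference did not pass (log2 difference 0.65, 95% interval -0.01 to 1.32, limma adjusted p = 0.16). With that pair the count tests gave smaller values (adjusted p = 0.00296 with edgeR and 0.00016 with DESeq2), also under the log2 limit of 1. A limma fit of only those groups gave an adjusted p of 0.0112 for the same log2 difference. For E1 such a fit gave larger values than the main fit, adjusted p = 0.0107 against WT and 0.00251 against F2 (limma). Both still passed the threshold. The main fit shares 1 estimate of the spread over all 6 groups, including the TAZ groups with few reads. The 2 RB1-null clones thus stood on opposite sides of WT, and only the E1 side passed the threshold.

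Ordered by mean, CALCRL was highest in F2 with DMSO, then WT with DMSO, E1 with DMSO, F2 with TAZ, WT with TAZ and E1 with TAZ. Each group's libraries were separate from those of the next group down, except for the last pair, WT and E1 with TAZ, which overlapped. With TAZ, F2 was 2.31-fold above WT and 2.38-fold above E1, given as a description.

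The CALCRL locus has a gene on the opposite strand. The row AC007319.1 carries the name that the GENCODE v29 annotation gives to an antisense transcript spanning CALCRL, and it was looked up after the CALCRL values were known. Its libraries held 61.1, 62.2 and 55.8 normalized counts in WT with DMSO and 4.93, 5.61 and 1.23 with TAZ. In E1 AC007319.1 had 42.9, 46.3 and 39.0 with DMSO and 17.0, 10.6 and 9.42 with TAZ. In F2 AC007319.1 had 108, 88.2 and 80.1 with DMSO and 14.6, 7.07 and 9.25 with TAZ. The antisense row was therefore lower in every TAZ library than in any DMSO library, and its DMSO groups stood in the same order as those of CALCRL. Whether the reads were counted by strand is not given in the sources used here, so reads of CALCRL and of this partner may not be fully separated.

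The protein-coding neighbours of CALCRL in RefSeq are ZSWIM2 and TFPI. ZSWIM2 had 0 reads in all groups. TFPI, an inhibitor of the tissue factor pathway of blood coagulation, was among the abundant RNAs of these cells and fell with TAZ in all 3 lines. Its libraries held 28963, 27877 and 27665 normalized counts in WT with DMSO and 3057, 2900 and 2632 with TAZ. The fall was 9.84-fold in WT (log2 difference -3.30 ± 0.08 SE, limma adjusted p = 4.97e-17), 6.18-fold in clone E1 (-2.63 ± 0.08, adjusted p = 1.07e-15) and 6.01-fold in clone F2 (-2.59 ± 0.08, adjusted p = 1.13e-15). TFPI did not pass between WT and either clone in DMSO: its log2 difference was -0.08 (95% interval -0.25 to 0.08) for E1 against WT and 0.19 (95% interval 0.03 to 0.35, limma adjusted p = 0.084) for F2 against WT. Whether CALCRL and TFPI differ in this respect was not tested.

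RAMP1, RAMP2 and RAMP3, the partners without which CALCRL is not carried to the surface, were at or near 0 in every group. Over all 18 libraries, with 614932401 reads in total, RAMP1 had 2 reads, RAMP2 had 0 and RAMP3 had 1. The RAMP1 reads were 1 each in replicate 1 of WT with TAZ and replicate 3 of E1 with TAZ, and the RAMP3 read was in replicate 3 of F2 with DMSO. No library reached 3 reads, the upper limit that a count of 0 allows, which corresponds to 0.0763 to 0.117 CPM (reads scaled to library size) depending on the library and covers counting error only. A difference between groups was not detectable at this depth for any RAMP gene, and no fold is given. The same limit holds in the groups with more and with less CALCRL: the 3 groups with 156 to 742 mean normalized counts of the receptor had 1 RAMP read among them. RAMP2-AS1, annotated on the strand opposite RAMP2, had 2 reads in all.

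The genes next to the RAMP loci were followed by the same rule. EZH1, beside RAMP2 and the paralog of the drug's target, had group means from 1062 to 1384 normalized counts. VPS25, on the other side of RAMP2, and UBE2F, RBM44 and TBRG4, next to RAMP1 and RAMP3, did not pass the threshold with TAZ in any line. ADCY1, the neighbour of RAMP3 on its other side, rose in all 3 lines and is described with the cAMP genes.

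ADM, the ligand, was abundant in every library and varied little. In WT the libraries held 4392, 3687 and 3904 normalized counts with DMSO and 3785, 3965 and 3786 with TAZ. In E1 they held 3734, 4192 and 3239 with DMSO and 3255, 3120 and 3073 with TAZ. In F2 they held 4353, 4414 and 4120 with DMSO and 4535, 3989 and 4236 with TAZ. The libraries of the 2 treatments overlapped in all 3 lines, and the lowest values were those of E1 with TAZ.

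The means of ADM were 3994 ± 361 (SD, n = 3) and 3845 ± 104 in WT without and with TAZ, 3722 ± 476 and 3149 ± 94.2 in E1, and 4295 ± 155 and 4253 ± 274 in F2. ADM did not pass the threshold in any of the 11 contrasts. Of all tested genes, 21.3% did so with TAZ in WT, 15.1% in E1 and 17% in clone F2. In DMSO the shares were 5.04% between E1 and WT, 2.98% between F2 and WT, and 7.56% between E1 and F2, and with TAZ they were 11.3%, 12.3% and 6.82%. For the difference of the responses from that of WT they were 10% in E1 and 7.48% in F2. The log2 difference with TAZ was -0.05 in WT (95% interval -0.22 to 0.12, limma adjusted p = 0.598) and -0.02 in F2 (-0.19 to 0.16, adjusted p = 0.894). In E1 it was -0.23 (-0.40 to -0.06, limma adjusted p = 0.0253), small in size but with an interval below 0; a fit of only those groups gave an adjusted p of 0.123. All 3 intervals lie within 0.40 of 0 on the log2 scale. Scaling to the same total in every library shifted the median of all genes by -0.151 in the WT contrast, and on that scale ADM in WT differed by -0.20 (limma adjusted p = 0.0329), still under the limit of 1.

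Between the lines, ADM was slightly lower in E1. With TAZ the log2 difference was -0.29 against WT (95% interval -0.46 to -0.12, limma adjusted p = 0.00656) and -0.43 against F2 (-0.60 to -0.26, adjusted p = 0.000514). With DMSO it was -0.21 against F2 (-0.39 to -0.04, limma adjusted p = 0.0471, or 0.208 in a fit of only those groups) and -0.11 against WT (-0.28 to 0.07, adjusted p = 0.402). F2 and WT differed by 0.11 with DMSO (limma adjusted p = 0.388) and by 0.14 with TAZ (adjusted p = 0.148). Scaled to the same total, F2 against WT with TAZ was 0.29 (limma adjusted p = 0.00507), still under the limit of 1; the median of all genes shifted by 0.146 there. The response to TAZ did not differ detectably between lines: E1 minus WT was -0.18 (95% interval -0.42 to 0.06, limma adjusted p = 0.232) and F2 minus WT was 0.04 (-0.21 to 0.28, adjusted p = 0.854).

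**Figure D2:**
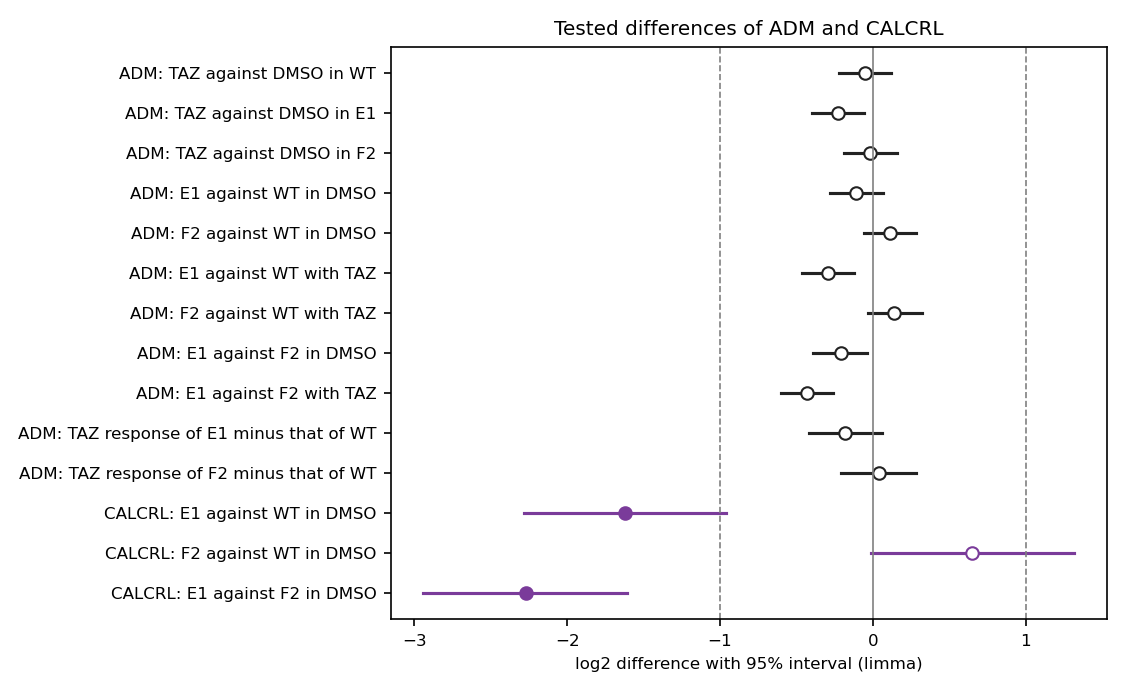
Tested log2 differences of ADM (black, 11 contrasts) and CALCRL (purple, the 3 contrasts between lines in DMSO) from the limma fit of all 18 libraries; points are estimates, bars 95% intervals, filled points passed the threshold and dashed lines mark the log2 limit of 1. ADM lies between -0.43 and 0.14 in every contrast, and CALCRL passes in both contrasts with E1, at -1.62 and -2.27. The CALCRL tests are not independent of its choice, because the same DMSO libraries entered the fall for which it was picked.

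Ordered by mean, ADM ran from F2 with DMSO through F2 with TAZ, WT with DMSO, WT with TAZ and E1 with DMSO to E1 with TAZ. Every neighbouring pair in that order overlapped. To set ligand and receptor side by side, levels were divided by the merged exon length (2718 bases for ADM and 6144 for CALCRL) to give RPKM, reads scaled to library size and to kilobases of exon. On this scale ADM had group means of 33.3 to 49.1 RPKM. CALCRL had 2.35 ± 0.251 RPKM (SD, n = 3) in WT, 0.762 ± 0.181 in clone E1 and 3.76 ± 0.325 in clone F2 with DMSO. With TAZ it had 0.0407 ± 0.0252, 0.0409 ± 0.0134 and 0.103 ± 0.0147. The ratio of ADM to CALCRL was thus 19.1, 54.1 and 13.1 with DMSO and 956, 814 and 462 with TAZ in WT, E1 and F2. With TAZ, CALCRL had 4 to 12 reads per library in WT and 5 to 11 in E1, so these ratios are imprecise. Because CALCRL was picked for its fall with TAZ, the higher ratio with TAZ is no separate result. The receptor's level spanned 3.76 to 0.0407 RPKM over the groups while the ligand's stayed within its narrow range.

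The genes that flank ADM in RefSeq are SBF2 and AMPD3, and they moved in opposite directions. SBF2, a regulator of membrane traffic, fell with TAZ in WT (log2 difference -1.33 ± 0.09 SE, limma adjusted p = 2.42e-10) and in F2 (-1.02 ± 0.09, adjusted p = 1.33e-08), and was -0.89 in E1, under the limit of 1. AMPD3, an AMP deaminase, rose in all 3 lines, by 1.34 in WT, 1.64 in clone E1 and 1.17 in clone F2 on the log2 scale.

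The wider set of related peptides, alternative receptors, processing and clearing enzymes was followed as a list of 15 genes, of which 9 could be tested. With TAZ, 4 rose in WT, 3 in clone E1 and 3 in clone F2, and none fell. ACKR3 and IAPP, among those that rose, passed the filter only through their TAZ libraries, so a fall could not be counted for them. The median log2 difference of the tested genes was 0.56, 0.39 and 0.34, against 0.03, 0.02 and 0.02 over all tested genes. For reference, 14.5%, 11.3% and 13.3% of all tested genes rose in WT, E1 and F2. The plot of log2 changes by list shows these counts gene by gene.

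PAM, the enzyme that amidates the C-terminus of adrenomedullin and of many other peptides, rose most of the processing enzymes. Its libraries held 101, 106 and 111 normalized counts in WT with DMSO and 8011, 8083 and 7151 with TAZ. In E1 PAM had 7.14, 14.5 and 9.74 with DMSO and 4607, 5398 and 5280 with TAZ. In F2 PAM had 51.2, 62.2 and 68.0 with DMSO and 6572, 6361 and 6557 with TAZ. PAM libraries of the 2 treatments were far apart in each line, by 73.2-fold in WT (log2 difference 6.18 ± 0.16 SE, limma adjusted p = 1.85e-16), 487-fold in clone E1 (8.84 ± 0.16, adjusted p = 1.72e-18) and 107-fold in clone F2 (6.73 ± 0.16, adjusted p = 4.88e-17). With DMSO, PAM was lower in E1 than in WT, by 10.1-fold (log2 difference -3.27 ± 0.16 SE, limma adjusted p = 2.38e-11). Per length, PAM moved from 0.0356 to 0.366 RPKM in the DMSO groups to 16.5 to 24.1 RPKM with TAZ, the order of magnitude of ADM.

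MME (neprilysin), a membrane peptidase that degrades adrenomedullin among other peptides, was abundant in every group, at 204 to 304 RPKM. Its mean normalized count was 71858 ± 3190 (SD, n = 3) without and 106280 ± 6905 with TAZ in WT, and its log2 differences of 0.56 in WT, 0.43 in clone E1 and 0.34 in clone F2 stayed under the limit of 1. ECE1, a metallopeptidase related to MME, rose in WT (log2 difference 1.10, limma adjusted p = 1.1e-10) and had 0.39 in E1 and 0.78 in F2. CPE, a carboxypeptidase of the secretory pathway, had -0.16, -0.32 and -0.73, and IDE, the insulin-degrading enzyme, had -0.10, -0.18 and -0.08. Neither passed the threshold in any line.

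ACKR3, an atypical receptor that takes up chemokines and also adrenomedullin without signalling through G proteins, was at or under 3 reads in all DMSO libraries and present in all TAZ libraries. With TAZ it held 439, 430 and 372 normalized counts in WT, 39.4, 48.4 and 42.4 in clone E1, and 129, 125 and 98.0 in clone F2. Against a limit of 3 reads in each DMSO library, ACKR3 was at least 150-fold higher with TAZ in WT. It was at least 15.3-fold higher in clone E1 and at least 35.9-fold in clone F2. With TAZ, ACKR3 was lower in E1 than in WT (log2 difference -3.22 ± 0.29 SE, limma adjusted p = 5.01e-08) and lower in F2 than in WT (-1.81 ± 0.29, adjusted p = 4.51e-05).

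**Figure D3:**
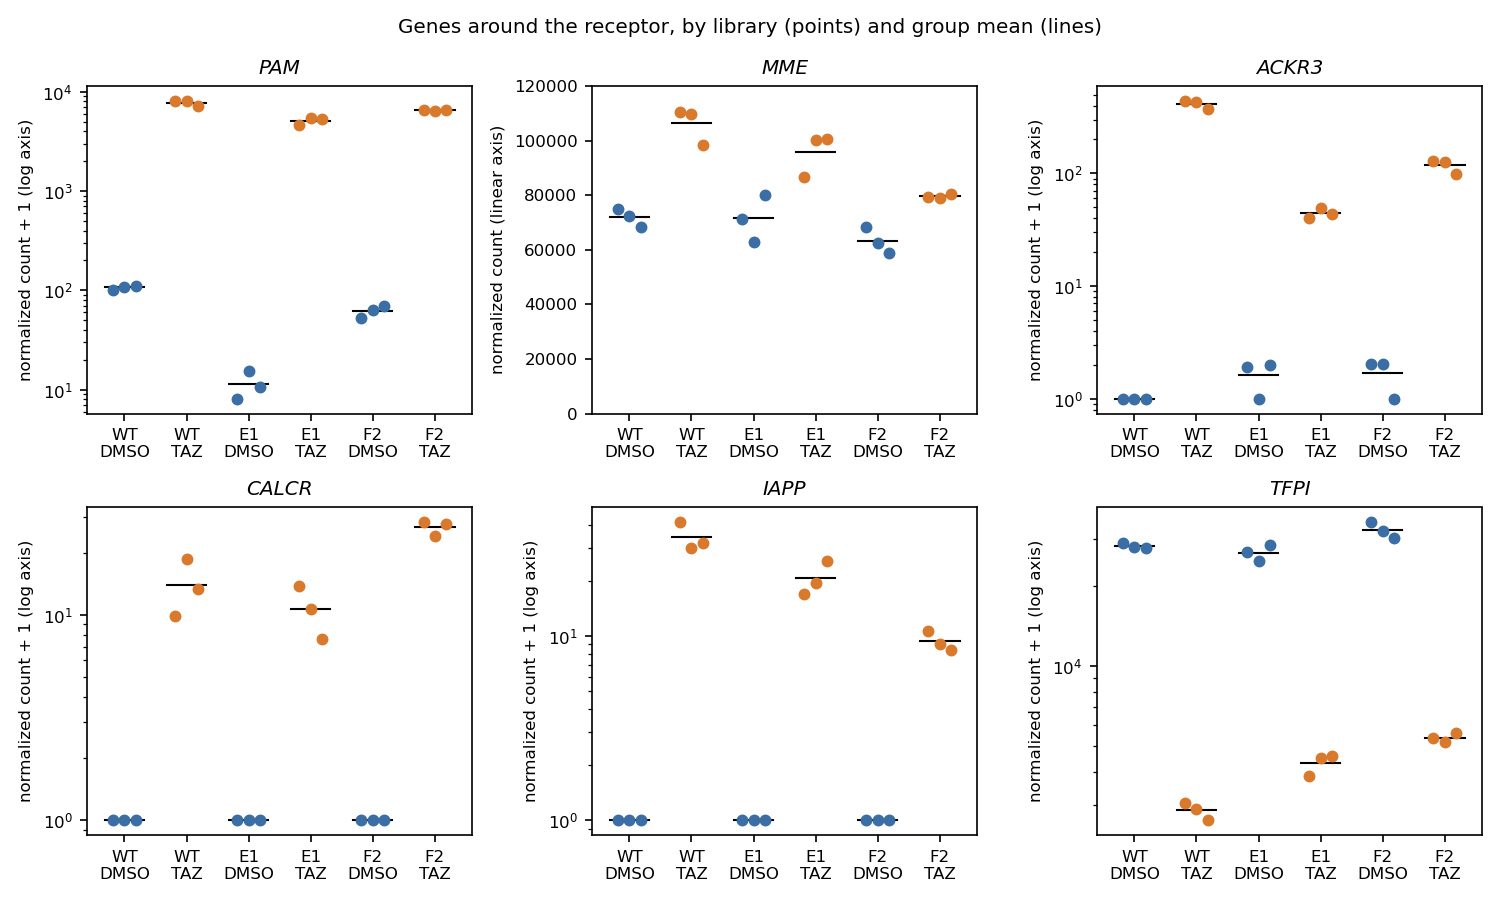
Normalized counts by library (points) and group means (black lines) of the amidating enzyme PAM, the peptidase MME, the receptors ACKR3 and CALCR, the peptide IAPP and TFPI, the neighbour of CALCRL; blue is DMSO and orange TAZ, MME has a linear axis from 0 and the other panels show the value plus 1 on a log axis. PAM, ACKR3, CALCR and IAPP are higher in every TAZ library, TFPI is lower in every TAZ library, and MME differs least.

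IAPP (amylin), a peptide hormone related to CGRP and adrenomedullin, had 0 reads in all 9 DMSO libraries. With TAZ, IAPP had means of 33.4 ± 6.14 normalized counts (SD, n = 3) in WT, 19.6 ± 4.40 in clone E1 and 8.39 ± 1.19 in clone F2, at least 12.1-fold, 6.92-fold and 2.56-fold higher. CALCR, the calcitonin receptor, is the closest relative of CALCRL and also pairs with RAMPs to bind amylin. It was under the filter and was not tested, had 0 reads in all DMSO libraries, and held 8.87, 17.8 and 12.3 normalized counts in WT, 12.8, 9.67 and 6.60 in clone E1, and 27.2, 23.2 and 26.8 in clone F2 with TAZ. Every TAZ library held reads of CALCR and no DMSO library did. The other ligands were near the counting limit: ADM2 (intermedin) and CALCA and CALCB, which encode the CGRP peptides, had group means of at most 1.03, 0.336 and 1.69 normalized counts.

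Among the class B receptors, the family to which CALCRL belongs, 4 of 14 listed genes could be tested. With TAZ, 3 rose in WT, 2 in clone E1 and 3 in clone F2, and 1 fell in F2, where 14.5%, 11.3% and 13.3% of all tested genes rose and 3.71% fell in F2. With 4 tested genes these counts are a description of those genes. CRHR1 passed the filter only through its TAZ libraries, so a fall could not be counted for it. CRHR1, a receptor for corticotropin-releasing hormone, rose in all 3 lines, from 3.03 to 20.3 mean normalized counts in WT, 1.27 to 29.5 in clone E1 and 4.58 to 40.0 in clone F2. GCGR, the glucagon receptor, also rose in all 3, from 12.6 to 39.0, 10.0 to 36.0 and 16.1 to 86.0. PTH1R, the parathyroid hormone receptor, rose in WT (log2 difference 1.45, limma adjusted p = 3.4e-08) and F2 (1.17, adjusted p = 8.11e-07) and had 0.37 in E1. GIPR, the receptor for the incretin GIP, fell in F2 (log2 difference -1.54, limma adjusted p = 1.41e-06) and had -0.99 in WT and -0.76 in E1. In WT it sat at the edge of the limit: GIPR was past it with the same total in every library, with edgeR and with DESeq2.

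The Gs and cAMP signalling list, downstream of CALCRL, had 25 of 30 genes tested. With TAZ, 6 rose in WT, 6 in clone E1 and 7 in clone F2, and 1 fell in F2. PDE4B, PDE4D and ADCY8, among those that rose, passed the filter only through their TAZ libraries, so a fall could not be counted for them. The medians were 0.25, 0.16 and 0.12 on the log2 scale, against 0.03, 0.02 and 0.02 over all tested genes. Over all tested genes 14.5%, 11.3% and 13.3% rose in these lines, and 3.71% fell in F2. GNAS, which encodes the Gs alpha subunit, had log2 differences of -0.06, 0.28 and -0.12 in WT, E1 and F2. Of the subunits of protein kinase A, the catalytic PRKACA had 0.18, 0.16 and 0.09 and PRKACB 0.03, 0.66 and 0.77. The regulatory subunit PRKAR1A had 0.45, 0.30 and 0.15, PRKAR2A had 0.30, -0.08 and -0.20, and PRKAR2B had -0.48, -0.64 and -0.70. None of these values reached the log2 limit of 1, though adjusted p (limma) was as low as 9.13e-07 for PRKACB in F2 and 1.04e-06 for PRKAR2B in F2.

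The members that rose were enzymes that make or break down cAMP and 1 of its sensors. PDE4B, a cAMP phosphodiesterase, had 1 read over the 9 DMSO libraries, and rose to 1431 ± 196 normalized counts (SD, n = 3) in WT, 3788 ± 330 in clone E1 and 4021 ± 116 in clone F2. That is at least 518-fold, 1337-fold and 1228-fold higher. PDE4D, of the same enzyme family, rose to 79.2, 74.0 and 181 mean normalized counts from at most 3.51.

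Adenylyl cyclases ADCY1, ADCY5 and ADCY8, which make cAMP, rose in all 3 lines. ADCY1 went from 23.4 to 141 mean normalized counts in WT, 89.4 to 932 in clone E1 and 28.3 to 588 in clone F2. In DMSO, ADCY1 was higher in E1 than in WT (log2 difference 1.90 ± 0.14 SE, limma adjusted p = 1e-08). RAPGEF3 (EPAC), a cAMP-activated exchange factor, rose by 1.69, 1.39 and 1.51 on the log2 scale. CREM, a transcription factor of the cAMP response, fell in F2 (log2 difference -1.10, limma adjusted p = 1.15e-09) and had -0.76 in WT and -0.54 in E1.

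Early genes that cAMP and other signals induce were a list of 8, all tested. With TAZ, 5 rose in WT, 4 in clone E1 and 4 in clone F2, and 1 (CREM, also in the previous list) fell in F2. The shares of all tested genes were 14.5%, 11.3% and 13.3% higher, and 3.71% lower in F2. SIK1, a kinase induced by cAMP, rose from 467 to 2499 mean normalized counts in WT, 403 to 1355 in clone E1 and 448 to 1935 in clone F2. DUSP1, a phosphatase of MAP kinases, and the nuclear receptors NR4A2 and NR4A3 rose in all 3 lines, with log2 differences of 1.09 to 1.72, 1.25 to 1.42 and 2.49 to 3.19. NR4A1, a nuclear receptor of the same family, rose in WT (log2 difference 1.02, limma adjusted p = 3.31e-06) and had 0.40 in E1 and 0.34 in F2. FOS had -0.02, 0.59 and -0.07 and PER1, a clock gene, had 0.51, 0.23 and 0.62, none past the threshold. These genes respond to many receptors, and the RNA levels measured here are not a measure of cAMP.

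**Figure D4:**
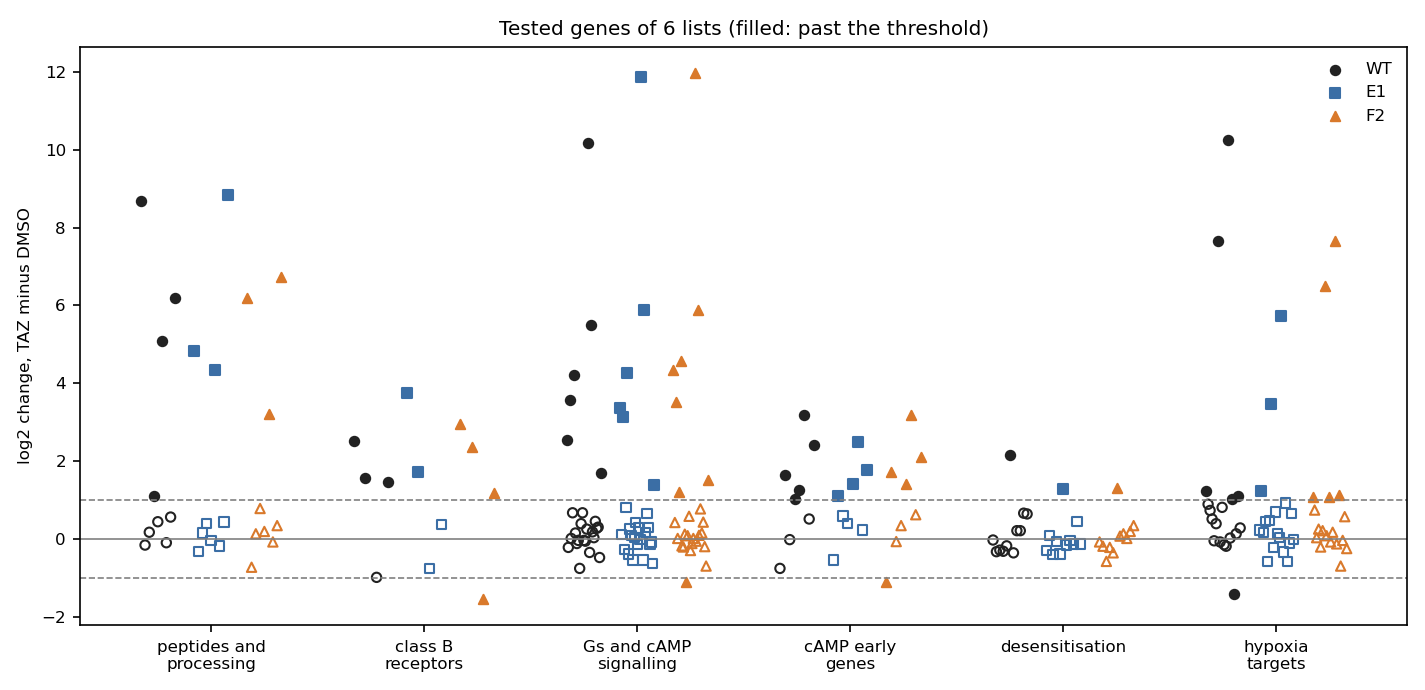
Log2 change with TAZ (TAZ minus DMSO, log2 of normalized count + 1) of every tested gene in 6 gene lists, by line (WT circles, E1 squares, F2 triangles); filled symbols passed the threshold and dashed lines mark the log2 limit of 1. PDE4B (10.17 to 11.97), NDRG1 (5.74 to 10.25) and PAM (6.18 to 8.84) lie far above the limit in all 3 lines, and in the desensitisation list 1 gene per line passes.

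Genes that switch receptors off and recycle them (arrestins, GRK kinases and traffic proteins) were a list of 11, all tested. In each line 1 of 11 rose and none fell, no more than the 14.5%, 11.3% and 13.3% of all tested genes that rose in WT, E1 and F2, and the medians were -0.03, -0.13 and 0.01. The gene that rose was GRK5, a kinase that phosphorylates active receptors, from 120 to 536 mean normalized counts in WT, 137 to 334 in clone E1 and 165 to 403 in clone F2. RAB7A, a GTPase of late endosomes, had log2 differences of 0.66, 0.45 and 0.19. RAB5A, of early endosomes, had 0.21, -0.13 and 0.01, NSF, a fusion ATPase, had 0.21, -0.05 and 0.13, and the scaffold SLC9A3R1 had 0.64, -0.13 and 0.34.

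ADM is a textbook target of hypoxia-inducible factors, so other targets were followed beside it, 18 of 19 tested. With TAZ, 5 rose in WT, 3 in clone E1 and 5 in clone F2, and 1 fell in WT. NDRG1 and EGLN3, among those that rose, passed the filter only through their TAZ libraries, so a fall could not be counted for them. Of all tested genes 14.5%, 11.3% and 13.3% rose and, in WT, 6.77% fell, so in E1 the share of 3 in 18 was close to that of all genes. In WT the count was 3 with the same total in every library, where that of the early genes was 4 and that of the peptide and processing genes 3. NDRG1, a stress-induced growth regulator, had 0 reads in all DMSO libraries and rose to 1214 ± 41.4 normalized counts (SD, n = 3) in WT, 53.4 ± 11.2 in clone E1 and 201 ± 7.75 in clone F2. EGLN3, a prolyl hydroxylase that marks hypoxia-inducible factors for breakdown, rose from at most 0.314 to 253 ± 15.0 in WT, 13.1 ± 4.66 in clone E1 and 89.7 ± 1.90 in clone F2. The abundant glycolytic targets ENO1, LDHA and PGK1 did not pass in any line, with log2 differences of -0.22 to 0.17, nor did BNIP3L, a mitophagy receptor, with 0.51, 0.44 and 0.25. PDK1, a kinase that restrains pyruvate entry into mitochondria, fell in WT (log2 difference -1.43, limma adjusted p = 3.5e-09). Other listed targets went up: SLC2A1 from 2432 to 5199 mean normalized counts in WT and HK2 from 505 to 1061 in F2. P4HA2 went from 1197 to 2430 in WT and 935 to 2046 in F2, and ANGPTL4 from 152 to 358 and 141 to 298. ANKRD37 went from 30.2 to 71.0 in E1, while CA12 went down there, from 3405 to 2255, without passing the threshold. Most of the tested hypoxia targets did not pass in any given line, and ADM, itself left out of this list, did not pass either.

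Endothelial markers were examined because CALCRL, RAMP2 and ADM together are typical of endothelium. Of 12 markers 11 were in the table. EGFL7 made up most of their summed level, at group means of 567 to 1376 normalized counts, and without it the sum was 5.19 to 33.0 in the DMSO libraries and 162 to 293 in the TAZ libraries. Between 4 and 6 of the markers had no read in each DMSO group, against 0 or 1 in each TAZ group. ROBO4, an endothelial guidance receptor, was the largest part of the sum without EGFL7 with TAZ, at 143, 110 and 151 mean normalized counts. It had 1 read over the DMSO libraries. Single markers differed: CLDN5, a tight junction protein, had means of 4.31 and 2.35 normalized counts without and with TAZ in WT, and EMCN had no read in E1 and F2. The part of these markers in the CALCRL values was not tested. Leucocyte markers summed to at most 11.1 normalized counts in any library.

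Genes whose pattern over the 18 libraries was most like that of CALCRL were found by Pearson's r of log2(normalized count + 1), a description in which all points share the same libraries and the TAZ contrast dominates. They were LINC00478 (r = 0.988), USP3 (0.986), HOXC13 (0.984), PWWP2A (0.983) and ZNF738 (0.982). Their ranges were narrower than that of CALCRL: LINC00478, a non-coding RNA, had group means of 413, 291 and 488 normalized counts with DMSO and 124, 110 and 156 with TAZ in WT, E1 and F2. HOXC13, a homeobox factor, had 1081, 816 and 1249 with DMSO and 383, 435 and 494 with TAZ. Both had E1 lowest and F2 highest among the DMSO groups, while for USP3 the DMSO means were 1160 in WT and 1155 in F2, and for PWWP2A 2171 and 2159. All 5 were selected for likeness to CALCRL, so a shared order is no independent observation.

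For ADM, whose levels varied little, the closest patterns were TBX1 (r = 0.924), DDAH2 (0.923), SNX21 (0.909), MPND (0.900) and C2CD4C (0.891), again over 18 libraries. TBX1, a T-box transcription factor, had group means of 428, 320 and 503 normalized counts with DMSO and 417, 198 and 438 with TAZ in WT, E1 and F2. DDAH2, an enzyme that clears inhibitors of nitric oxide synthesis, had 1542, 1164 and 1816 with DMSO and 1399, 703 and 1488 with TAZ. In both, as in ADM, E1 with TAZ was the lowest group. They were selected for likeness to ADM, so the shared lowest group is no independent observation.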

How the data were processed

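Poly(A) RNA from 18 G401 libraries was sequenced as stranded paired reads, per the labels' protocols. Reads were processed with Trim Galore 0.4.4, STAR 2.6.0a, HTSeq and DESeq2 against hg19, per the submitters' processing notes; the gene annotation and the strand setting of the counting are not given in the sources used here. The deposited table holds 1 signal per gene and library, which the authors made by dividing counts by a size factor. Multiplying each library by its step gave whole numbers for 100% of values (tolerance 0.001), so whole reads were recovered, with size factors of 0.812 to 1.145.

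The values were tested as log2(value + 1) with limma 3.58.1 (trend; R 4.3.3), 1 fit of 6 group means over all libraries, for 16154 genes with a mean of at least 10, two-sided, with Benjamini-Hochberg adjustment. On simulated data the fit recovered 200 of 200 changed genes. Those changes were all larger than the log2 limit of 1 and in genes well above the filter. The simulation therefore does not bear on small differences such as those of ADM. Python 3.11.15 was used for descriptions. Alternatives were other pseudocounts, filters and scalings, edgeR 4.0.16 and DESeq2 1.42.0 on the recovered reads, only the groups of a contrast, a replicate block, and leaving out each library. One scaling, without the 100 genes with most reads, was chosen after seeing the data. RPKM used merged exon lengths of GENCODE v29, another annotation than may have been counted. Neighbours were the nearest protein-coding RefSeq genes present in the table, a restriction added to the rule of nearest genes; 1 marker, PECAM1, had no row.

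The members, gene lists and tests were chosen with earlier results of these data known. The text names the members, list genes past the threshold in all lines (up to 6 a list) or of highest level (up to 4), the neighbours and the 5 genes most like each tested member; other list genes it names (PDK1, PRKACB, PRKAR2B and the near-absent peptides, for example) and AC007319.1 were chosen after their values were seen.

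Replicate numbers are shared across groups. Deviations from group means correlated by 0.182, 0.108 and 0.375 between same-numbered libraries of F2 and WT in DMSO, so the numbers pair those samples by the rule used; in no other contrast did all 3 pairs exceed 0.1.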

Additional observations from a re-analysis of the deposited data

Results flagged for a closer look

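The response to TAZ differed between a clone and WT for genes named above, by the limma test of the difference itself. For PAM it was larger in E1 by 2.67 on the log2 scale (95% interval 2.19 to 3.14, limma adjusted p = 6.19e-08), with the DMSO level of PAM lower in E1. For ADCY1 it was larger in F2 by 1.78 (limma adjusted p = 2.95e-06).

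The other genes had 3 reads or fewer per library in DMSO in both lines, so these differences are those of the TAZ levels on a scale that depends on the pseudocount. For ACKR3 the difference was -3.86 in E1 and -2.50 in F2, and for NDRG1 it was -4.50 in E1 and -2.59 in F2. EGLN3 differed by -4.21 in E1 and IAPP by -1.87 in F2. PDE4B differed in the other direction, by 1.71 in E1 and 1.80 in F2. Of all tested genes, 10% passed the threshold for the response of E1 and 7.48% for that of F2. Their causes were not tested, and each clone is a single clone.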

How the results depend on the processing

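Between the lines in DMSO, CALCRL kept its direction and its side of the threshold under all alternatives, though these tests are not independent of its choice. ADM stayed short of the log2 limit of 1 wherever that limit was kept. Without the limit ADM passed for TAZ in E1 (-0.23) and for E1 against WT with TAZ (-0.29), F2 in DMSO (-0.21) and F2 with TAZ (-0.43). A pseudocount of 5 gave -5.16 in WT, -3.54 in E1 and -4.86 for F2 in CALCRL with TAZ. The adjusted p of ADM for E1 against F2 in DMSO was over 0.05 with no filter (limma, 0.0946), only the groups of the contrast (limma, 0.208) and edgeR (0.0544). Apart from left-out libraries, that for TAZ in E1 was 0.0047 to 0.123 (highest with only the groups), and that for F2 against WT with TAZ 0.00507 to 0.244, below 0.05 with the same total, without the 100 genes with most reads (0.0117) and with only the groups (0.0267).

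Leaving out 1 library at a time, ADM with TAZ ranged from -0.11 to 0.02 in WT, -0.33 to -0.14 in clone E1 and -0.06 to 0.03 in clone F2, and the response of F2 minus that of WT from -0.03 to 0.09. The sign changed without WT DMSO replicate 1 (0.02 in WT and -0.03 for the response), without F2 DMSO replicate 2 (0) or F2 TAZ replicate 2 (0.03) in F2, and without F2 TAZ replicate 1 for the response (-0.01). CALCRL in E1 against WT with TAZ ranged from -0.37 to 0.47, below 0 without WT TAZ replicate 1 (-0.37), E1 TAZ replicate 2 (-0.09) or E1 TAZ replicate 3 (-0.07).

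With the replicate block, F2 against WT in DMSO gave 0.65 for CALCRL (limma adjusted p = 0.106) and 0.11 for ADM (adjusted p = 0.359), and no call on a member changed. In the other contrasts same-numbered libraries correlated by -0.244 to 0.315.

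The count of genes past the threshold moved with the filter and the limit. With no filter it was 5720 for TAZ in WT, 4082 in clone E1 and 4698 in clone F2, and with TAZ 3130 between E1 and WT, 3273 between F2 and WT, and 2001 between the clones. With a mean of at least 50 it was 1550 for TAZ in E1 and 1768 in F2, 504 between E1 and WT and 792 between the clones in DMSO, and with TAZ 1139 between E1 and WT, 1230 between F2 and WT, and 605 between the clones; fewer genes were tested there. With no log2 limit it was 10367 for TAZ in WT, 7554 in clone E1 and 8438 in clone F2, then 3740, 3260 and 5997 for these pairs in DMSO, 8373, 8573 and 5575 with TAZ, and 5720 and 4344 for the response of E1 and of F2 minus that of WT. Over the lists and list genes, 47 combinations of a result and a setting moved and 1477 did not. The list genes counted there had been picked for passing the threshold in all lines with TAZ, so the tally is no independent check of them.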
